A study of Hordeum vulgare with 10 samples.

Results

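After 1 h at 35.5 °C, 31 barley genes had a lower mean normalized read count in heated than in control roots and a higher one in heated than in control shoots. They were chosen from the deposited means of 24211 MLOC genes, MLOC being the gene identifiers of the Ensembl Plants barley annotation, that were listed for both tissues. The rule asked for a mean normalized count of at least 50 in each tissue, which 10895 genes reached without the genes of inorganic phosphate (Pi) homeostasis of the study. It then asked for a heat/control ratio, with 1 added to each mean, of at most 0.67 in roots and at least 1.5 in shoots. The 31 genes made up 0.285% of the 10895. None of the 10 Pi-related genes with an MLOC identifier met the numeric conditions.

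The plants were 2-week-old barley of cultivar Rolap. Control plants were kept at 22 °C and heated plants at 35.5 °C, and roots and shoots were taken after 1 h of heat. Each condition had 2 libraries from roots and 3 from shoots. All groups were of the same cultivar, with no genetic change named in the labels, and each library came from the tissue of an organ. In such bulk samples, fewer cells of a type and less RNA per cell cannot be told apart.

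The authors' tables give only a mean for each group, but each mean was split into the whole reads of its libraries, so that every member has a value per library. Libraries are numbered within a group only to name them, and their replicate letters are not known. The libraries held 14741839 to 16830180 reads in genes, a total that in shoots rests in large part on means that were not split (genes with split reads held 44.2% to 52.1% of it). Hsp90.1 (MLOC_5618), a heat shock chaperone used by the study to check the treatment, had a mean normalized count of 163 in control and 196171 in heated roots. In shoots its mean was 51.0 in control and 30076 in heated plants, so that the temperature labels of both tissues matched a response to heat.

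Plants answer high temperature within minutes by making heat shock proteins, chaperones that keep other proteins folded, under the control of heat shock transcription factors. At the same time the transcripts of many genes of growth and transport become less abundant. Roots and shoots share the chaperone response but differ in the genes that surround it, since roots take up water and ions while shoots carry out photosynthesis and lose water to the air. None of the 31 genes carries a name or note in the deposited tables, and the barley gene table at hand holds no MLOC identifier. They are therefore given by identifier, with no function, position or sequence.

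Opposite changes in the 2 tissues were few beside shared ones. With the same cutoffs, 887 of the 10895 genes were higher in heat in both tissues and 570 were lower in both. The mirrored pattern, higher in heated roots and lower in heated shoots, was found for 45 genes. A ratio of at most 0.67 in roots was found for 1600 genes (14.7%), of which the 31 members are 1.94%. A ratio of at least 1.5 in shoots was found for 1241 genes (11.4%), of which they are 2.50%. These ratios chose the members, so they are given as a description and were not tested.

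The falls in roots and the rises in shoots were mostly moderate. The root ratio of the members ran from 0.0939 to 0.661 with a median of 0.551, and the shoot ratio from 1.5001 to 3.63 with a median of 1.74. In roots, 9 members had a ratio of at most 0.5, and in shoots 8 had a ratio of at least 2. Only MLOC_52332 and MLOC_10689 passed both of these. Across the 31 members, Pearson's r of the log2 ratios in roots and shoots was -0.07 and Spearman's rho was -0.19. These genes share the same libraries and were cut by the same rule on both ratios, so nothing is read from these values.

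**Figure D1:**
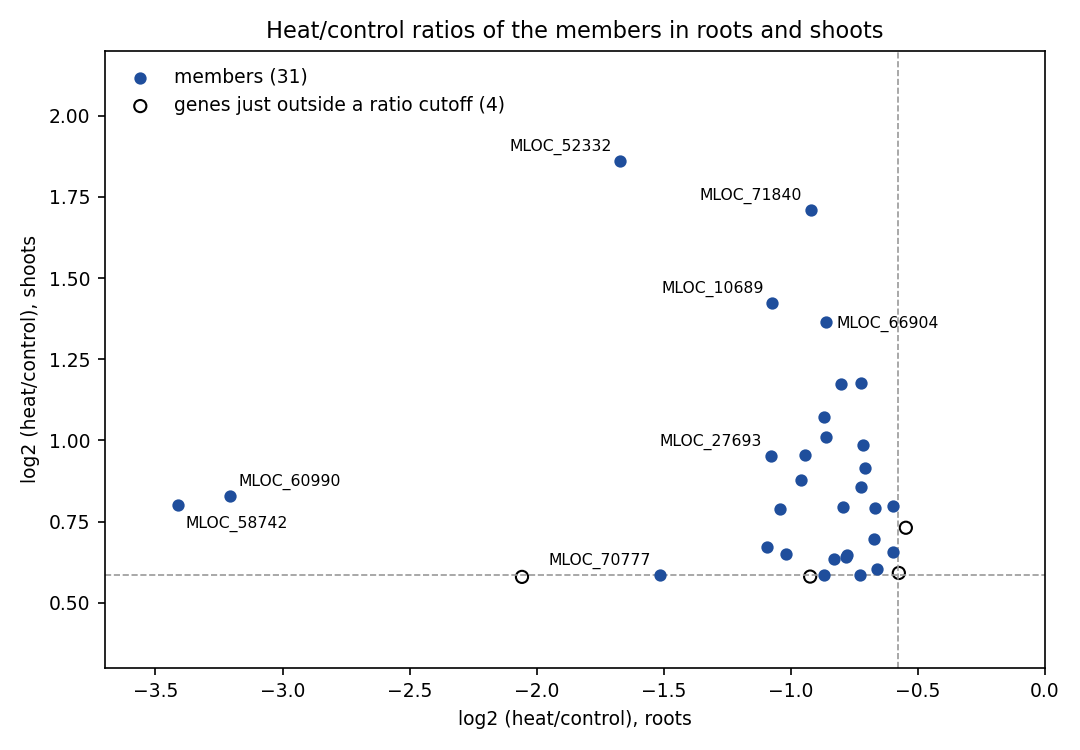
Log2 heat/control ratio of each member in roots (x axis) and in shoots (y axis), from the deposited group means. Dashed lines are the cutoffs of the rule, filled points are the 31 members and open circles are 4 genes just outside a ratio cutoff. MLOC_58742 and MLOC_60990 lie far to the left of the other members, and MLOC_52332 is the highest in shoots.

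Several members lay close to a cutoff. The largest root ratios inside it were those of MLOC_53068 and MLOC_7153, both 0.661, and the nearest genes outside were MLOC_78144 with 0.672 and MLOC_72705 with 0.685. The smallest shoot ratios inside the cutoff were 1.5001 for MLOC_69612 and 1.5006 for MLOC_44213, and the nearest genes outside were MLOC_4738 and MLOC_18081 with 1.496 and 1.495. MLOC_18081 had a root ratio of 0.240, lower than that of all but 2 members. For the minimum of 50, MLOC_71840 and MLOC_58742 were just inside with shoot means of 50.4 and 53.2. MLOC_71136 and MLOC_76271, with shoot means of 47.5 and 45.7, were just outside.

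MLOC_52332 changed most when roots and shoots were both considered. Its root libraries had normalized counts of 2102 and 2402 at 22 °C but 717 and 696 at 35.5 °C, a ratio of 0.314. In shoots it was 236, 226 and 217 in control and 784, 819 and 866 in heated plants, a ratio of 3.63. In both tissues the libraries of a group lay close together and far from the other group. It had the largest rise in shoots and the third place in the fall in roots.

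MLOC_10689 had counts of 263 and 380.3 in roots at 22 °C and 116 and 189 at 35.5 °C. In shoots they were 129, 166 and 141 in control and 344, 408 and 421 in heat. The groups did not overlap in either tissue, but in roots the spread within each pair was wide beside the difference. Its ratios were 0.476 in roots and 2.68 in shoots.

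MLOC_27693 stood out by its counts in roots, which were 3079 and 2746 in control and 1310.4 and 1445 in heat. In shoots it had only 67.0, 57.3 and 37.4 in control and 87.2, 141 and 87.2 in heat. It was thus a gene with many reads in roots and few in shoots at both temperatures, and its ratios of 0.473 and 1.93 describe changes at very different levels. MLOC_66904 had the same kind of profile, with 504 and 474 against 248 and 289 in roots. Its shoot counts were 33.9, 47.3 and 30.5 in control and 104, 91.6 and 97.6 in heat, a ratio of 2.58. MLOC_40592 had 351 and 318 in roots at 22 °C and 165 and 182 at 35.5 °C. In shoots, its control libraries were spread from 14.8 over 39.1 to 58.6, all below the heated ones at 83.1, 67.9 and 70.0. The lowest of the control values rests on 15 reads.

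MLOC_66913 and MLOC_56127 had similar ratios to each other in roots, 0.514 and 0.548. MLOC_66913 was counted at 507 and 648 in control and 304 and 288 in heated roots, and at 272, 261 and 334 in control and 574, 530.5 and 491 in heated shoots. MLOC_56127 was at 476 and 566 against 286 and 284 in roots. In shoots it was at 119, 123 and 121 in control and 261, 221 and 285 in heat, a ratio of 2.103, and no libraries of the 2 conditions overlapped for either gene.

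MLOC_71840 had the second largest rise in shoots, with a ratio of 3.27, but also the widest spread among heated shoots, a coefficient of variation of 66.2%. Its control shoot libraries were at 16.1, 37.3 and 15.8 and the heated ones at 59.5, 136 and 37.9, so that the highest control and the lowest heated library nearly met. In roots it was at 57.3 and 119 in control and 53.9 and 38.2 in heat. Its reads were few, from 16 to 138 in a library. Its values rested on single libraries: without heated shoot library 2 the shoot ratio was 2.07 and its rank among the members fell to 8, and without control root library 2 the root ratio was 0.807, outside the cutoff.

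**Figure D2:**
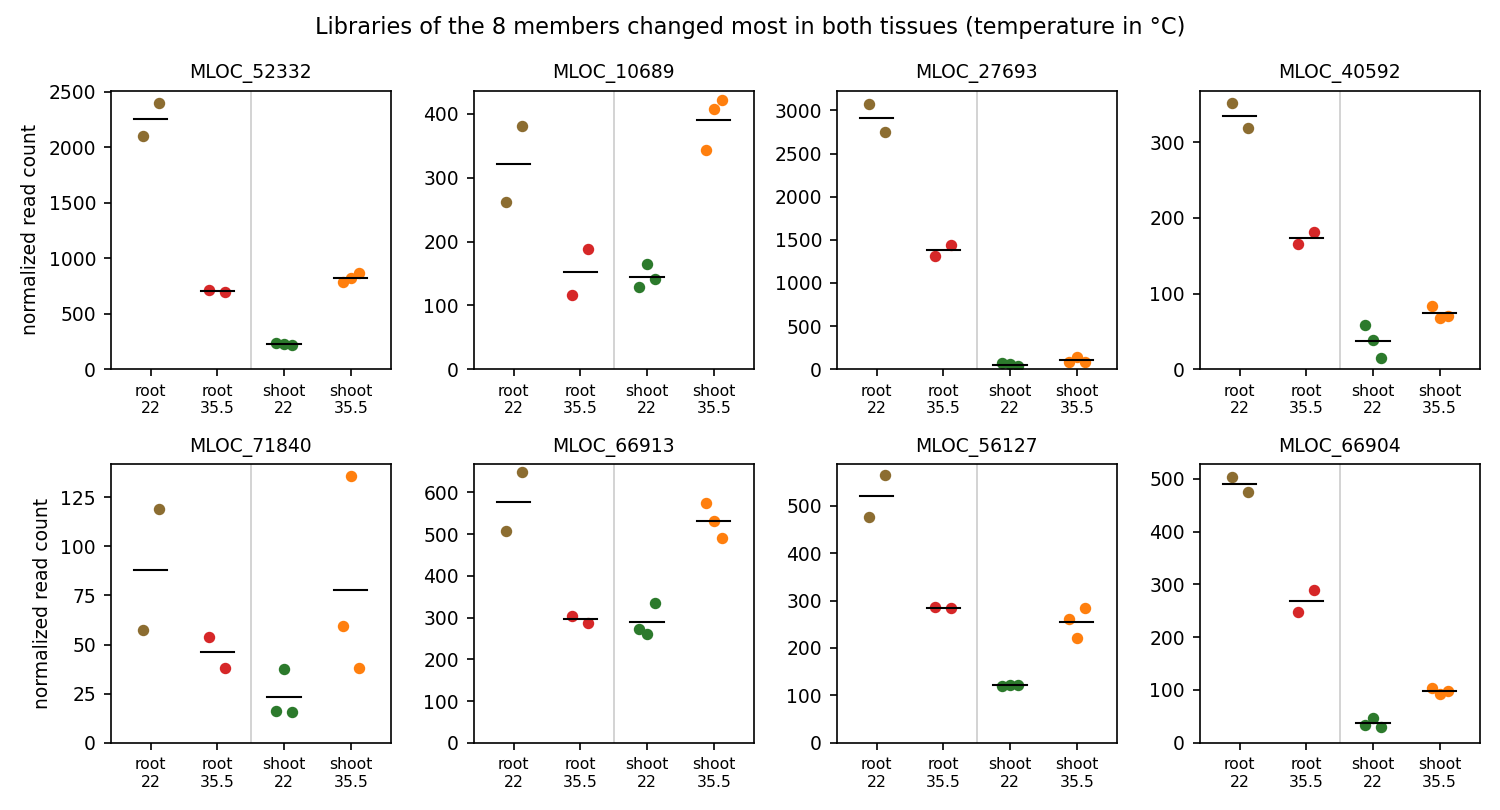
Normalized read count (y axis, from 0) of each library for the 8 members that changed most in both tissues, by organ and temperature in °C (x axis). Points are libraries and bars are group means (n = 2 for roots and 3 for shoots); roots and shoots were scaled separately. For MLOC_52332 the control roots lie at 2102 and 2402 and the heated roots at 717 and 696, while for MLOC_71840 the heated shoots are spread from 37.9 to 136.

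The deepest falls in roots belonged to MLOC_58742 and MLOC_60990, the only members with a root ratio of at most 0.25. MLOC_58742 had 276 and 312 normalized counts in roots at 22 °C and 18.7 and 34.7 at 35.5 °C, a 10.6-fold lower mean. These heated values rest on 16 and 29 reads. MLOC_60990 had 373 and 397 in control and 43.3 and 38.2 in heat, which was 9.24-fold lower and rested on 37 and 32 reads in heat.

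In shoots both genes rose far less. MLOC_58742 had 34.8, 35.5 and 45.3 in control and 72.9, 50.7 and 80.4 in heated shoots, and MLOC_60990 had 39.9, 42.8 and 40.4 against 74.9, 70.1 and 75.8. Their shoot ratios, 1.74 and 1.78, were near the median of the members. The next largest falls in roots were those of MLOC_52332, given above, and MLOC_70777. MLOC_70777 had 692 and 816 in control and 228 and 298 in heated roots, and 364, 347 and 434 in control against 582, 611 and 527 in heated shoots.

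The members with the highest counts in roots were MLOC_27693, given above, MLOC_12540, MLOC_32780 and MLOC_81642. The last 3 had root ratios of 0.577, 0.606 and 0.612. MLOC_12540 had 3299.5 and 2177 in control and 1873 and 1288 in heated roots. The 2 control libraries lay farther apart than the lower control and the higher heated library. MLOC_32780 was even, with 2204 and 2214 in control and 1234 and 1443 in heated roots. MLOC_81642 had 1711 and 2600 in control and 1433 and 1202 in heat. Lengths of these genes were not at hand, so counts are not compared between genes as levels of expression.

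In shoots these genes had fewer counts. MLOC_12540 was at 398, 332 and 359 in control and 652, 603 and 638 in heat. MLOC_32780 was at 216, 160.1 and 164 in control and 407, 389 and 429 in heat, and MLOC_81642 at 183, 106 and 127 against 268, 246 and 273. The heated libraries of all of them lay above the control libraries. The highest mean counts in shoots were those of MLOC_52332, MLOC_12540, MLOC_70777 and MLOC_66913. The highest of these means was 525, against 2159 for the highest in roots.

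Libraries of the conditions did not overlap for 30 of the 31 members in roots and for 27 in shoots. Among the 10763 genes with the same minimum mean and reads known in all 10 libraries, all heated root libraries were below the controls for 32.7% and all heated shoot libraries above them for 28.1%. Both orders at once were seen for 27 members and for 2.93% of those genes. The rule used these contrasts, so nothing is read from the difference. The same holds for limma, a linear model with a variance estimate shared over genes, which called 29 members lower in heated roots and 29 higher in heated shoots, both in 27 (Benjamini-Hochberg adjusted p under 0.05). Over all genes tested it called 22% lower in heated roots and 18.4% higher in heated shoots. Members not called were MLOC_47637 and MLOC_71840 in roots, and MLOC_18785 and MLOC_68234 in shoots.

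Libraries of the conditions overlapped in 1 or both tissues for 4 members. MLOC_47637 overlapped in both tissues, with 45.8 and 89.7 in control and 30.4 and 51.4 in heated roots. Its shoot libraries were at 100.1, 81.9 and 137 in control and 294, 128 and 212 in heat. Without control root library 2 its root ratio was 0.895, outside the cutoff. MLOC_18785 overlapped in shoots, where control libraries were at 141, 188 and 238 and heated ones at 185, 620.0 and 342. In that group library 2 lay far above the others, and without it the shoot ratio was 1.39, outside the cutoff. MLOC_34470 was at 135, 145 and 209 in control and 277, 201 and 303 in heated shoots. MLOC_68234 was at 53.5, 111 and 75.8 in control and 145, 87.3 and 159.6 in heated shoots. In roots these last genes, MLOC_18785, MLOC_34470 and MLOC_68234, had all heated libraries below the controls.

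The libraries of a group were also less alike for the members than for other genes. In roots, the median coefficient of variation of the members was 11.6% at 22 °C and 8.81% at 35.5 °C, and that of the 10763 genes was 7.68% and 6.95%. In shoots, it was 14.9% at 22 °C and 11.2% at 35.5 °C for the members, and 8.70% and 9.38% for the 10763 genes. The members had lower counts, with a median mean of 312 in roots and 181 in shoots against 510 and 248 for the 10895 genes. They were also chosen by cutoffs on ratios of means, which genes with uneven libraries can pass more easily. The part of the counts and of this choice in the wider spread was not tested. Leaving out each of the 10 libraries in turn, 11 members met the rule every time. The other 20 failed it at least once, most often MLOC_69612 and MLOC_70777, which lay at the shoot cutoff and met it in 6 of 10 cases.

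The 8 remaining members, MLOC_74220, MLOC_20390, MLOC_81936, MLOC_11189, MLOC_77483, MLOC_38648, MLOC_52965 and MLOC_4201, had root ratios from 0.486 to 0.629 and shoot ratios from 1.55 to 2.26. Their mean counts ran from 59.2 to 613 in roots and from 56.5 to 299 in shoots. In none of them did the libraries of the 2 conditions overlap in either tissue. MLOC_74220 had the largest rise of these in shoots, from 95.9, 107 and 131 in control to 221, 216 and 321 in heat.

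Summed over the 31 members, the reads in CPM (counts per 1e6 reads in genes) were 1596 and 1618 for roots at 22 °C and 600 and 598 at 35.5 °C. In shoots the CPM were 285, 282 and 302 in control and 471, 465 and 476 in heat. In CPM the sum was larger in heated roots than in heated shoots, but with all 10 libraries on a common scale (size factors described below) this order turned, with sums of 6671 and 6604 in heated roots and 10836, 10824 and 11482 in heated shoots. As a sum of normalized counts it was 21981 and 22515 for roots at 22 °C and 11692 and 11464 at 35.5 °C, a smaller fall than in CPM. Scaled to the total of reads in genes, the median of all genes tested moved from 0.01 to -0.47 on the log2 scale in roots and from -0.01 to -0.23 in shoots. No member changed direction in either tissue with this scaling.

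The level in roots against that in shoots was not part of the rule, apart from the minimum mean, and was tested over all 10 libraries scaled together. The contrast was the mean of control and heated roots minus the mean of control and heated shoots on the log2 scale. Of the 31 members, 12 were higher in roots and 14 higher in shoots, and 5 did not pass the test (limma, adjusted p under 0.05 over 18134 genes). These are 38.7% and 45.2% of the members. Over all genes tested, 43.5% were higher in roots and 38.4% in shoots, and among the 10763 genes with the same minimum mean 37.9% and 41.9%. The shares of the members were thus near those of the background. The median log2 difference was -0.38 for the members and -0.04 for the 10763 genes.

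MLOC_27693 had the largest difference in favour of roots, 3.499 on the log2 scale (SE 0.18, limma adjusted p = 9.4e-09). On the common scale its counts were 1847 and 1664 in control and 748 and 833 in heated roots, and from 53.8 to 196 in the 6 shoot libraries, so the organs did not overlap. MLOC_81642 followed with 1.88 (SE 0.16, limma adjusted p = 8.1e-07) and MLOC_53068 with 1.56 (SE 0.13, limma adjusted p = 5.8e-07). MLOC_53068 had 511 and 541 normalized counts in control and 334 and 361 in heated roots, and 49.2, 45.5 and 42.4 in control and 103, 70.1 and 67.7 in heated shoots.

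At the other end, MLOC_18785 had a difference of -3.06 (SE 0.29, limma adjusted p = 2.4e-06). Its normalized counts in roots were 90.0 and 100.9 in control and 44.5 and 59.8 in heat. MLOC_47637 had a difference of -2.73 (SE 0.28, limma adjusted p = 4.7e-06). MLOC_20029 had -2.38 (SE 0.10, limma adjusted p = 2e-09), with 180.1 and 222 in control and 122 and 131 in heated roots, and 244, 285 and 322 in control and 446, 427 and 420.2 in heated shoots. For these shoot genes a difference that was there at 22 °C was wider in heat, whereas for MLOC_27693 it was narrower. The rule that chose the members fixes these directions, so they are a description.

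The 5 members that did not pass were MLOC_60990, MLOC_56127, MLOC_69612, MLOC_58742 and MLOC_71840. The 95% interval of the log2 difference was -0.30 to 0.19 for MLOC_60990 and -0.33 to 0.08 for MLOC_56127. It was -0.72 to 0.07 for MLOC_69612, -0.91 to 0.01 for MLOC_58742 and -1.41 to 0.30 for MLOC_71840. The interval was widest for MLOC_71840, and none of these genes can be said to have equal levels in both organs. Each averaged difference combines a positive value in control with a negative one in heat. These were 1.98 and -2.09 for MLOC_60990, 0.87 and -1.11 for MLOC_56127, and 1.69 and -2.59 for MLOC_58742. For MLOC_69612 they were 0.42 and -1.08, and for MLOC_71840 0.71 and -1.82. In these last genes the libraries of the organs were not all apart at both temperatures.

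**Figure D3:**
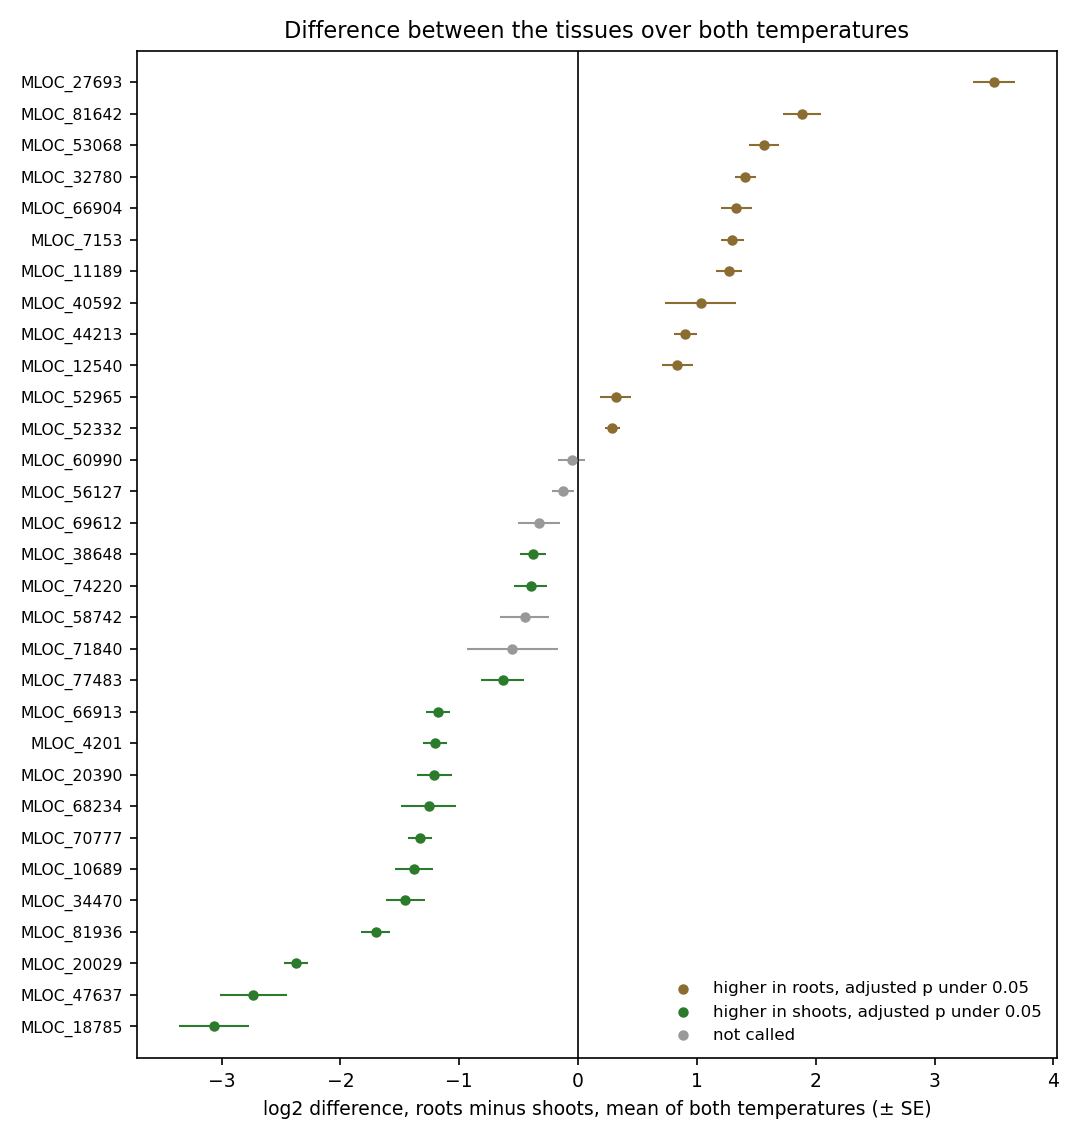
Log2 difference of roots minus shoots, averaged over both temperatures (x axis), for each of the 31 members (y axis), with its standard error from limma over 10 libraries scaled together. The values run from -3.06 for MLOC_18785 to 3.499 for MLOC_27693, with 12 members called higher in roots, 14 higher in shoots and 5 not called.

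This order depended on how roots and shoots were put on a common scale. The common size factors assume that most genes have similar levels in both organs, and the median of all genes was then 0.10. Scaled to the total of reads in genes, the median of all genes was 1.31. With that scale 19 members were called higher in roots and 4 in shoots, beside 73.8% and 19.6% of all genes. The median of the members, 0.80, stayed below that of all genes with both scales. The labels give no sequencing run, so it is not known whether runs differed between organs. If they did, run and organ could not be told apart.

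The opposite changes brought the organs to a different order for some members. At 22 °C, 20 members had a higher fitted level in roots than in shoots, and at 35.5 °C 9 had. For 11 members the order turned, from higher in roots in control to higher in shoots in heat. For 7 of them all libraries were apart at both temperatures. The 11 include all members not called over both temperatures. They also include MLOC_52332, MLOC_52965 and MLOC_40592, called higher in roots, and MLOC_38648, MLOC_74220 and MLOC_77483, called higher in shoots. With scaling to the total of reads in genes, 17 turned, 12 of them with all libraries apart. The rule favours such turns, and no share over all genes is given beside them, so these numbers are a description.

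MLOC_52332 showed the turn at the highest counts. On the common scale its control counts were 1261 and 1455 in roots and 331, 318 and 311 in shoots, and its heated counts were 409 and 401 in roots and 1082, 1139.5 and 1227 in shoots. On this scale the level of the heated shoots came near that of the control roots, and the level of the heated roots near that of the control shoots. Scaled to the total of reads in genes the order still turned, but the means were 2590.1 in control and 582 in heated roots and 251 in control and 779.95 in heated shoots, so that these levels were farther apart. For MLOC_60990, control counts were 224 and 240.3 in roots and from 56.0 to 60.3 in shoots, while heated counts were 24.7 and 22.0 in roots and from 97.5 to 107 in shoots. MLOC_58742 had the widest swing, from 1.69 at 22 °C to -2.59 at 35.5 °C in the log2 difference of roots minus shoots. MLOC_56127, MLOC_74220, MLOC_38648 and MLOC_52965 were the others with all libraries apart.

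For 9 members roots stayed higher at both temperatures, and for 11 shoots were already higher at 22 °C. On the common scale MLOC_12540 came close to equal levels in heat, with 1068 and 742 in heated roots and 899.7, 838 and 905 in heated shoots, and MLOC_10689 and MLOC_66913 had close levels at 22 °C and lower ones in roots in heat. MLOC_10689 was at 158 and 230.4 in control roots and 181, 233 and 202 in control shoots, and at 66.1 and 109 in heated roots and 475, 567 and 597 in heated shoots. None of these near equalities held with scaling to the total of reads in genes. On that scale MLOC_12540 had means of 1301 in heated roots and 598 in heated shoots, MLOC_10689 had 369.6 in control roots and 161 in control shoots, and MLOC_66913 had 664 and 320.3.

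**Figure D4:**
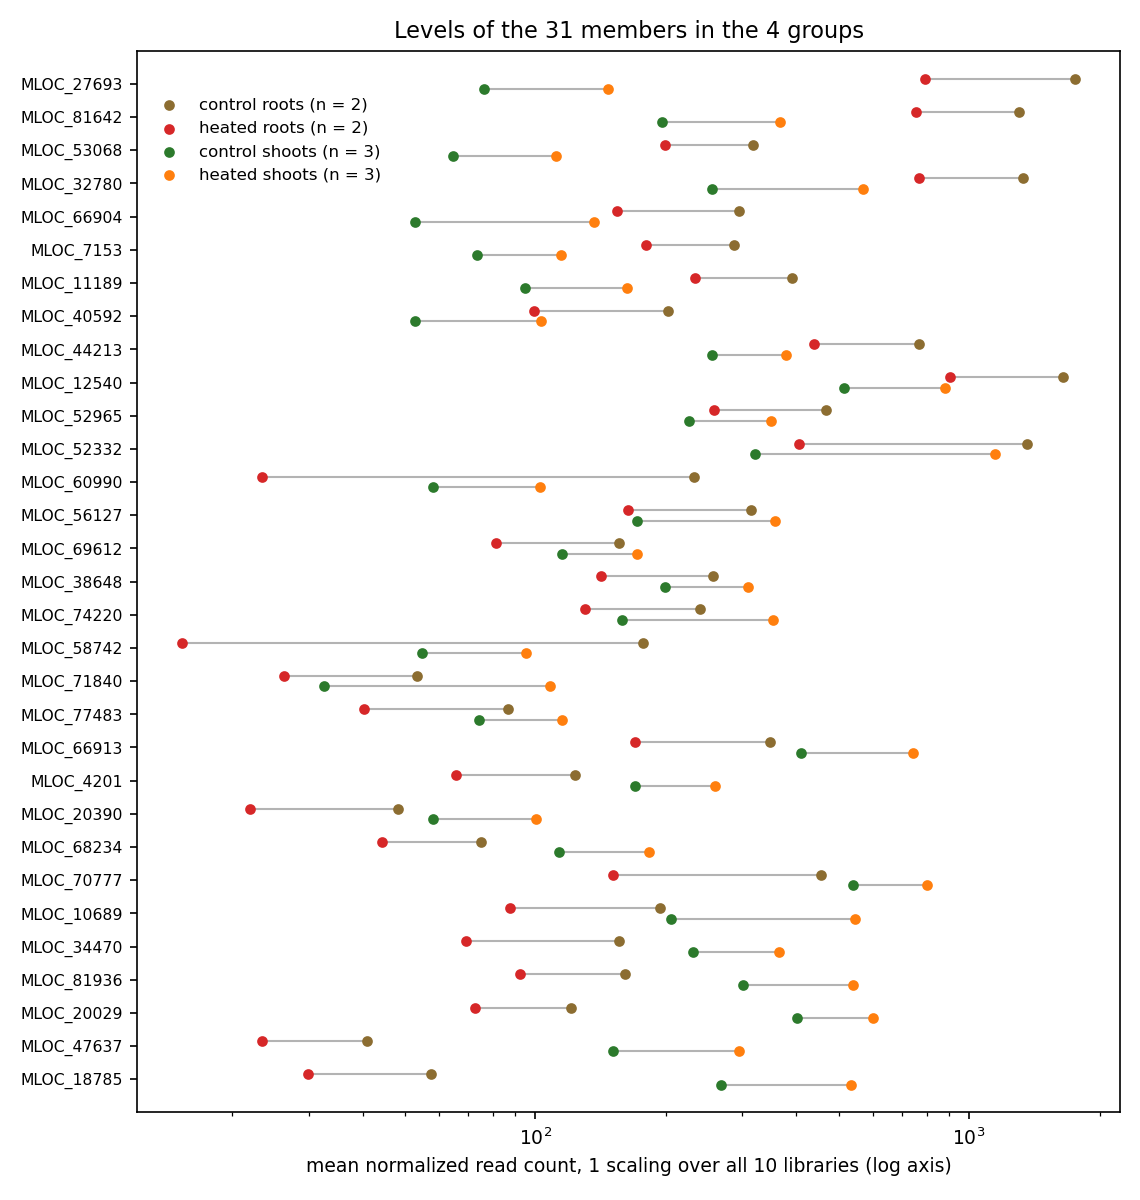
Mean normalized read count of the 31 members (y axis) in control and heated roots (n = 2 each) and control and heated shoots (n = 3 each), all 10 libraries scaled together, on a log x axis. Lines join the temperatures within an organ, and genes are ordered by the log2 difference of roots minus shoots over both temperatures. For MLOC_52332 the means go from 1358 to 405 in roots and from 320.2 to 1149.5 in shoots.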

How the data were processed

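Strand-specific libraries of poly(A) RNA were mapped by the authors to the barley genome of Ensembl Plants (TopHat2), counted per gene (HTSeq) and compared within each organ (DESeq). Tool versions and the strand setting of the counting were not given in the sources used here. For each gene, the authors deposited a signal value, the mean normalized count (reads divided by a library's size factor) over both conditions and per condition, without values per library. Their tables also hold fold changes, log2 fold changes and p-values of the authors' comparison, and lists of genes past their threshold, none of which was used. Lines that name no gene (no feature, ambiguous, several alignments) made up 60.4% to 67.7% of the normalized reads and were left out.

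Each mean, written with 15 digits, was split into whole reads by trying all combinations (Python 3.11.15, numba and numpy 2.4.6). All root means above 0 had exactly 1 solution, as had all shoot means up to 10000. Larger means, 156 in control and 205 in heated shoots, were not split, and no member was among them. They entered the totals of the shoot libraries as the group mean times the size factor, so that CPM and scaling to the total rest on them. Of 2000 randomly moved means in each group, 0, 0, 1 and 1 were split by chance. Root size factors were 1.22 and 1.16 at 22 °C and 0.854 and 0.837 at 35.5 °C, and those of shoots ran from 0.871 to 1.18. Within groups, libraries varied 2.27 to 6.32 times as much as sampling noise. The methods state biological replicates.

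A count model on the split reads had been planned and was not run, although the means of all members were split into whole reads. Instead, limma 3.58.1 in R 4.3.3, with a trend of the variance on the mean, was run on log2(normalized count + 1). It was run for genes with a mean of at least 10, and tested on simulated data. Differences on this scale understate the changes of genes with few reads. P-values were adjusted by Benjamini-Hochberg over all genes tested. Size factors over all 10 libraries (median of ratios) were used between organs.

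Members and lists were chosen with earlier results of these data known. Named are the 8 members with the largest smaller one of both log2 ratios, the 4 with the largest fall in roots and the 4 with the largest rise in shoots, the 4 with the highest mean in each organ, the 3 at each end of the organ difference, the 2 nearest to each cutoff on both sides, members with overlapping libraries, and Hsp90.1. Remaining members are listed by name only, apart from MLOC_74220, described after its values were seen. Alternatives were other cutoffs, minimum means, pseudocounts and scalings, no filter, and leaving out each library.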

Additional observations from a re-analysis of the deposited data

Results flagged for a closer look

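In 27 of the 31 members, all heated root libraries were below the control root libraries. In the same members, all heated shoot libraries were above the control shoot libraries. Both orders at once were seen for 2.93% of the 10763 genes with the same minimum mean and reads known in all 10 libraries. The rule that chose the members fixes these directions, and the difference between the organs was not tested. Groups of 2 and 3 libraries are too small to single out one library, so no library was marked as standing apart in these members. Both ratios of MLOC_71840, which is among them, still depended on single libraries, as given above.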

How the results depend on the processing

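The number of genes that met the rule, 31, was 2 with cutoffs of 0.5 in roots and 2 in shoots, and 164 with a cutoff of 0.8 in roots and its inverse in shoots. It was 58 with a minimum mean of 20 and 10 with a minimum mean of 200. With no pseudocount it stayed 31, with a pseudocount of 10 it was 26, and with TMM scaling it was 34. With scaling to the total of reads in genes 38 genes met it, of which 14 were among the 31. With 1 library left out it ran from 21, without heated shoot library 1, to 39, without control shoot library 3.

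Members called higher in roots, 12, were 19 with scaling to the total of reads in genes and 19 with the deposited size factors, and members called higher in shoots, 14, were 4 with either. With 1 library left out, 11 to 12 were called higher in roots and 13 to 15 in shoots. With all libraries, 43.5% of all genes were called higher in roots and 38.4% in shoots. With scaling to the total these shares were 73.8% and 19.6%. With the deposited size factors the number of all genes called also rose for roots and fell for shoots. Members called higher in heated shoots ran from 25 to 29 with 1 shoot library left out. In each of those fits fewer of all genes were called higher in heated shoots than with all libraries. The rule used this contrast, so nothing is read from the counts. For roots, leaving out 1 library leaves 1 in an arm, so no count of members called lower in heated roots is given. In the contrast of the organs, that library is assumed to vary like the others.

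The log2 difference of roots minus shoots changed sign for 11 members. With scaling to the total it became 0.80 for MLOC_38648, 1.06 for MLOC_56127, 0.71 for MLOC_58742, 1.11 for MLOC_60990, 0.0035 for MLOC_66913, 0.85 for MLOC_69612, 0.60 for MLOC_71840, 0.78 for MLOC_74220 and 0.53 for MLOC_77483. With the deposited size factors, which were set separately for each organ, it became 0.022 for MLOC_20390, 0.87 for MLOC_38648, 0.043 for MLOC_4201, 1.13 for MLOC_56127, 0.78 for MLOC_58742, 1.18 for MLOC_60990, 0.078 for MLOC_66913, 0.92 for MLOC_69612, 0.67 for MLOC_71840, 0.85 for MLOC_74220 and 0.61 for MLOC_77483. With a pseudocount of 10 it became 0.037 for MLOC_60990. Both scalings raise the value of every gene in roots by construction, and no heat/control ratio of a member changed sign.

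The call of MLOC_52965 as higher in roots was lost with TMM and without any 1 of 6 libraries, and that of MLOC_74220 as higher in shoots without control root library 1 or heated root library 2. MLOC_58742 was called higher in shoots with TMM and without heated root library 2 or heated shoot library 2, and MLOC_69612 without heated root library 1. No paired analysis was possible because the libraries split from the group means carry no replicate letter. DESeq2 and the planned count model, with TMM scaling, were not run. The pseudocount of 10 in limma and the deposited or recomputed size factors were added after seeing the data. Depth limits members such as MLOC_40592, where a library held 15 reads, and MLOC_58742 and MLOC_71840, where one held 16. Counting error is only part of their spread.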
